A study of Homo sapiens with 8 samples.

Results

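The genes described here are 36 components of the Notch pathway: 4 receptors, 5 ligands, 4 glycosyltransferases that act on the receptor, 4 subunits of the receptor-cleaving protease, 4 proteins of the nuclear complex, 8 transcription factors of the HES and HEY families and 7 regulators. They were taken by symbol from the count table, where all 36 were found among 26760 genes. Of these, 30 had enough counts to be tested, while NOTCH4, DLL4, MFNG, HES5, HEYL and DTX1 did not. RNA was measured in LK2, an established human cell line from a lung squamous cell carcinoma, in 8 libraries that form 4 groups of 2. GFP cells carried a constitutive GFP vector, pLEX_306-GFP in replicate 1 and pLEX_307-GFP in replicate 2, and DNp63 cells carried pLEX_306-DNp63 and pLEX_307-DNp63. DNp63 is the form of the transcription factor p63 without the N-terminal activation domain. Uninduced and induced cells both carried the doxycycline-controlled vector pLIX_403-DNp63 and were kept for 6 days without the drug (uninduced) or with it at 2 µg per ml (induced). No GFP cells given doxycycline are among the groups, so an effect of the drug and of DNp63 cannot be told apart in the induced cells. Whether replicates were grown as separate cultures is not said in the labels, so the p-values below measure the spread between these libraries.

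Notch is a receptor that is activated by contact between cells. A Jagged or Delta ligand on 1 cell binds a Notch receptor on its neighbour, and γ-secretase cuts the receptor within the membrane. The freed intracellular part joins the DNA-binding protein RBPJ and a Mastermind coactivator to switch on some HES and HEY genes. These families encode transcriptional repressors. Fringe enzymes add sugars to the receptor and change which ligands it answers to. In stratified epithelium p63 is the factor of the basal layer and Notch promotes differentiation above it, and the pair are known to act on each other; in the lung and nervous system Notch also restrains neuronal and neuroendocrine fates.

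Library totals ran from 2758158 to 10372248 counts, and 3 counts in a library correspond to 0.292 to 1.11 CPM (counts normalised to the scaled library size). TP63, the overexpressed gene, was at 0.739 and 1.91 CPM in GFP cells, 1850.1 and 3816 CPM under constitutive DNp63, 12.7 and 14.8 CPM uninduced and 412 and 422 CPM induced, so TP63 was lower after induction than under the constitutive vectors. Of the markers of a squamous line, SOX2 averaged 398 CPM in GFP cells, DSG3 10.5, KRT6A 4.07 and PKP1 0.872 CPM. KRT5 had 4 counts over both GFP libraries and KRT14 had 0 in every library. Under constitutive DNp63 SOX2 fell by 2.27 on the log2 scale (edgeR adjusted p = 0.00125). KRT6A rose there by 6.75 (edgeR adjusted p = 6.63e-06), KRT5 by 8.53, PKP1 by 4.585 and DSG3 by 2.54. The 2 DNp63 libraries were uneven in KRT5, at 398 and 18.8 CPM, and in PKP1, at 6.86 and 33.0 CPM. After induction the values were 2.42 for KRT6A (edgeR adjusted p = 0.0144) and −0.85 for SOX2 (0.464). Those of PKP1 (3.26, adjusted p = 0.579), KRT5 (2.43, 0.995) and DSG3 (0.25, 0.995) were not called either. Of the lung epithelium genes EPCAM averaged 435 CPM in GFP cells, CDH1 183 and NKX2-1 10.9 CPM. SFTPC, SFTPB, SCGB1A1 and FOXJ1 had 0 to 1 counts in any library. Of the 5 endothelial genes PECAM1 and CDH5 had no count, and the list summed to 1.11 to 2.33 CPM in GFP cells, 0.194 to 0.857 with constitutive DNp63, 2.21 to 2.24 uninduced and 0.590 to 1.48 induced. The 6 immune genes summed to 0.494 to 4.29 CPM over the 8 libraries. The 6 fibroblast genes, with COL3A1 and DCN at 0, summed to 8.28 to 30.5 CPM, nearly all of it COL1A1 (8.28 to 29.1 CPM). The 4 neuroendocrine genes summed to 506 to 1376 CPM, nearly all of it UCHL1. The libraries of the constitutive system differed more between replicates than those of the inducible system: 12.8% of tested genes differed over 2-fold between the 2 GFP libraries and 14.2% between the DNp63 libraries, against 2.24% and 5.97% uninduced and induced. The 8 genes of the stress response had a median log2 difference, replicate 1 minus replicate 2, of 2.08 with GFP and 0.98 with DNp63. ATF3, DDIT3, TRIB3, ASNS, CHAC1 and SESN2 were higher in replicate 1 of both groups, and FOS and EGR1 in replicate 2. FOS was at 0.369 and 13.8 CPM with GFP and 2.57 and 3.10 CPM with DNp63. EGR1 was at 11.8 and 82.8 CPM with GFP and 23.1 and 71.2 CPM with DNp63. The part of these 8 genes in the values below was not tested.

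Averaged over both systems, 5 of the 30 tested members passed the test (16.7%), against 5.67% of all 12303 tested genes. Calls were made at 0.05 on the Benjamini-Hochberg adjusted p of edgeR's quasi-likelihood test, adjusted over every tested gene. The ligand gene JAG1 rose (1 of 30, against 3.26% of all genes), and the fringe gene LFNG, the coactivator genes MAML2 and MAML3 and the HES-family gene HES6 fell (4 of 30, against 2.41%). The other 25 members did not pass, and the median log2 fold change of the 30 was 0.06, with 17 positive and 13 negative, beside a median of −0.01 over all genes. Within the constitutive system the same 5 members were called, out of 30, against 8.16% of all genes, 1 as higher (4.17% of all genes) and 4 as lower (3.99%). Within the inducible system none was called, against 0.284% of all genes (0.236% higher and 0.0488% lower), and 4 had an unadjusted p below 0.05; DESeq2 also called 0.

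**Figure D1:**
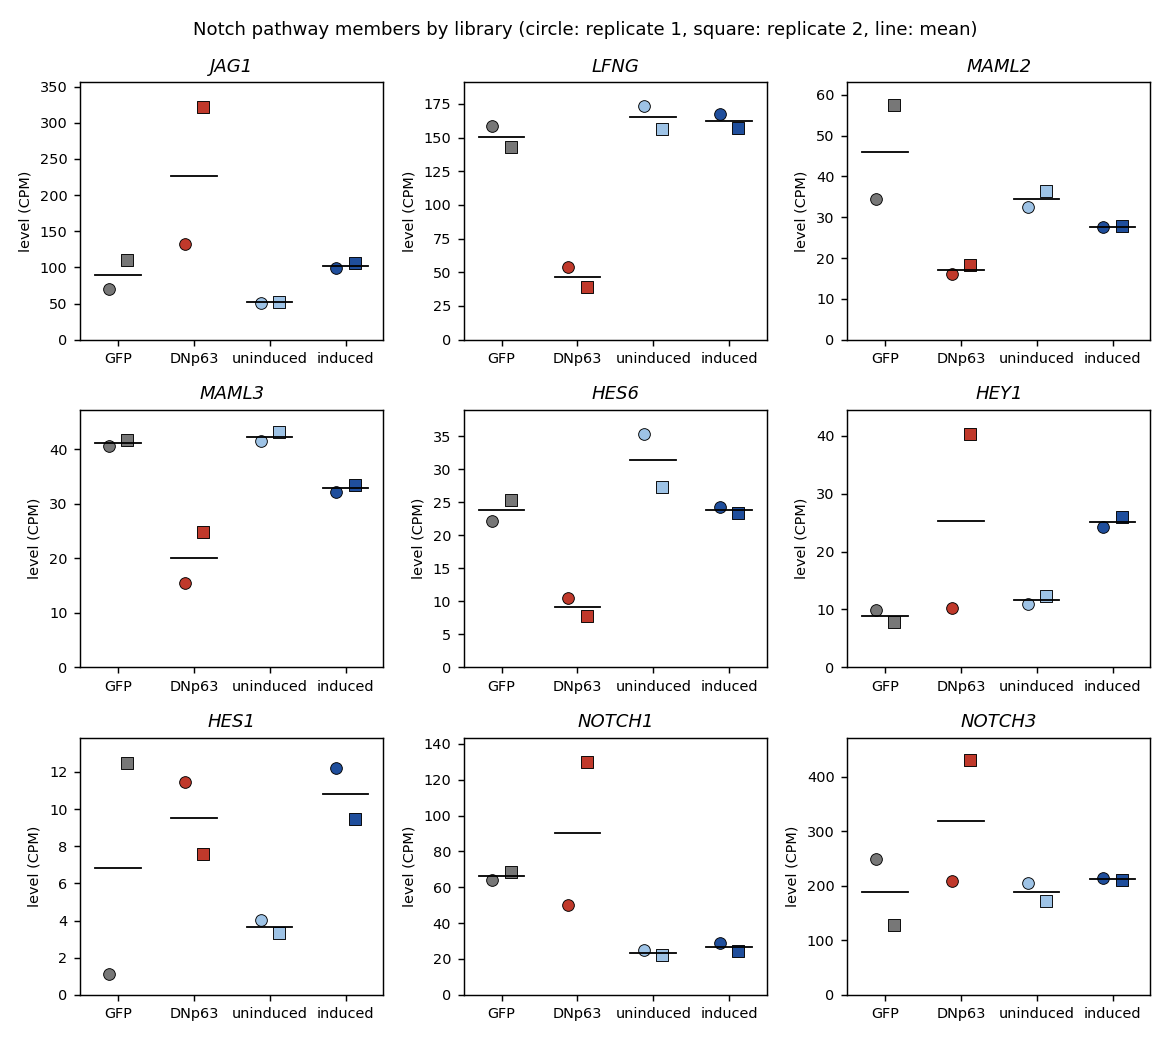
Levels of 9 members in CPM (vertical axes, starting at 0) in the 4 groups (horizontal axes); circles are replicate 1, squares replicate 2 and lines the mean of both. LFNG sat at 53.7 and 39.0 CPM in the DNp63 libraries and at 143 CPM or more in the other 6, whereas JAG1 was above its own control in both systems.

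Of the ligands, which sit in the membrane of the signalling cell, JAG1 was the most abundant per exon length. JAG1 was at 69.8 and 110.1 CPM in the GFP libraries and at 132 and 322 CPM under constitutive DNp63. It was at 50.5 and 52.7 CPM uninduced and at 98.8 and 106 CPM induced. Both DNp63 libraries lay above both GFP libraries, and both induced above both uninduced, although the GFP range included the induced values. Averaged over the systems, JAG1 rose by 1.16 ± 0.25 on the log2 scale (SE, n = 2 per group; edgeR adjusted p = 0.024). The rise was 1.33 ± 0.36 under constitutive DNp63 (adjusted p = 0.0462), and the value under induced DNp63 was 0.98 ± 0.36 (adjusted p = 0.579). The difference between the systems, −0.35 ± 0.50, did not pass (adjusted p = 0.847). The averaged call did not survive leaving out GFP replicate 1 (adjusted p = 0.058), uninduced replicates 1 (0.109) or 2 (0.106) or induced replicates 1 (0.113) or 2 (0.106), with values of 1.01 to 1.18; the constitutive call was lost in 7 of the 8 leave-outs (adjusted p of 0.083 to 0.2), all but that of DNp63 replicate 1, and its value was 0.54 without DNp63 replicate 2. A fit to the 4 inducible libraries alone, which uses their smaller spread, called JAG1 at 0.98 (adjusted p = 4.13e-06; 6.43% of 11991 genes called, 3.63% higher and 2.8% lower), and a fit to the 4 constitutive libraries alone did not (1.34; adjusted p = 0.191; 2.36% of 11629 genes called, 1.65% higher and 0.714% lower).

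The 250 bases before the start of JAG1 are shown because JAG1 is the member called as higher. They lie at chr20:10674000-10674249 on the minus strand of GRCh38.p14 (RefSeq) and are written 5′ to 3′; capitals would mark TGGGAA, the core of the RBPJ site, on either strand, and there is none.
JAG1: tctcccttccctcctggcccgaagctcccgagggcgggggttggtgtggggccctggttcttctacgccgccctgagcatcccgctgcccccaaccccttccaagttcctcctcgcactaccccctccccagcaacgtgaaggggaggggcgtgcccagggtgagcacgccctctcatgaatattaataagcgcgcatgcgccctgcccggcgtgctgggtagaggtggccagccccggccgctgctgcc
The window holds 3 matches to CNNGNNNNNNCNNG, a loose pattern of the sites of the p53 family, to which p63 belongs, and 68.6% of 35116 RefSeq promoter windows of this length hold at least 1.

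JAG2, the second Jagged ligand, was at 75.7 and 67.1 CPM in GFP cells and 175 and 96.4 CPM under constitutive DNp63. It was at 51.1 and 38.0 CPM uninduced and 53.7 and 48.8 CPM induced. The constitutive groups did not overlap and the inducible groups did. Its constitutive log2 value, 0.93 ± 0.28, missed the threshold (edgeR adjusted p = 0.0689), although it passed under DESeq2 (0.0283) and without DNp63 replicate 2 (1.30; 0.00387). Without DNp63 replicate 1 the value was 0.43 (0.292). The Delta ligands were weak. DLL1, which activates Notch in neighbouring cells, ranged from 2.35 to 8.87 CPM, with an averaged value of −0.12 ± 0.40. DLL3, a divergent ligand that acts mainly inside its own cell and is known from neuroendocrine tumours, ranged from 2.75 to 11.9 CPM, with an averaged value of 0.76 ± 0.37 and positive differences in 4 of 4 equally numbered pairs. DLL4, the ligand of sprouting vessels, had 2 and 1 counts with GFP, 3 and 1 with DNp63, 2 and 7 uninduced and 0 and 4 induced.

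The receptors showed no called member in any comparison. NOTCH3 was the most abundant per exon length, at an average of 26.2 CPM per kb over the 4 groups, against 5.55 for NOTCH1 and 4.66 for NOTCH2 (6.58 for NOTCH2 with the length of its longest transcript, which changes the order of these 2). NOTCH3 was at 249 and 128 CPM in GFP cells, 209 and 430 CPM under DNp63, 205 and 171 CPM uninduced and 215 and 211 CPM induced. The GFP and DNp63 ranges overlapped, with DNp63 replicate 2 the highest of the 8 libraries, and its constitutive value of 0.77 ± 0.35 did not pass (edgeR adjusted p = 0.221). NOTCH1 was at 64.3 and 68.4 CPM in GFP cells, 50.004 and 129.96 CPM under DNp63, 24.96 and 22.1 CPM uninduced and 29.03 and 24.6 CPM induced. All 4 libraries of the inducible vector thus held less NOTCH1 than all 4 of the constitutive vectors. Uninduced minus GFP, NOTCH1 gave −1.50 ± 0.37 on the log2 scale, which did not pass in edgeR (adjusted p = 0.273; 0.00813% of all genes called), while DESeq2 called it (0.017). No member was called between the control groups, where 5 had an unadjusted p below 0.05 and DESeq2 called NOTCH1 alone. NOTCH2 ranged from 56.3 to 107 CPM, with an averaged value of −0.04 ± 0.18. Its partial copy NOTCH2NL ranged from 14.7 to 43.7 CPM, and whether NOTCH2 lost reads to it was not tested. NOTCH4, a receptor of endothelium, had 0 counts in both GFP libraries, 6 and 1 with DNp63, 7 and 3 uninduced and 0 and 1 induced.

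**Figure D2:**
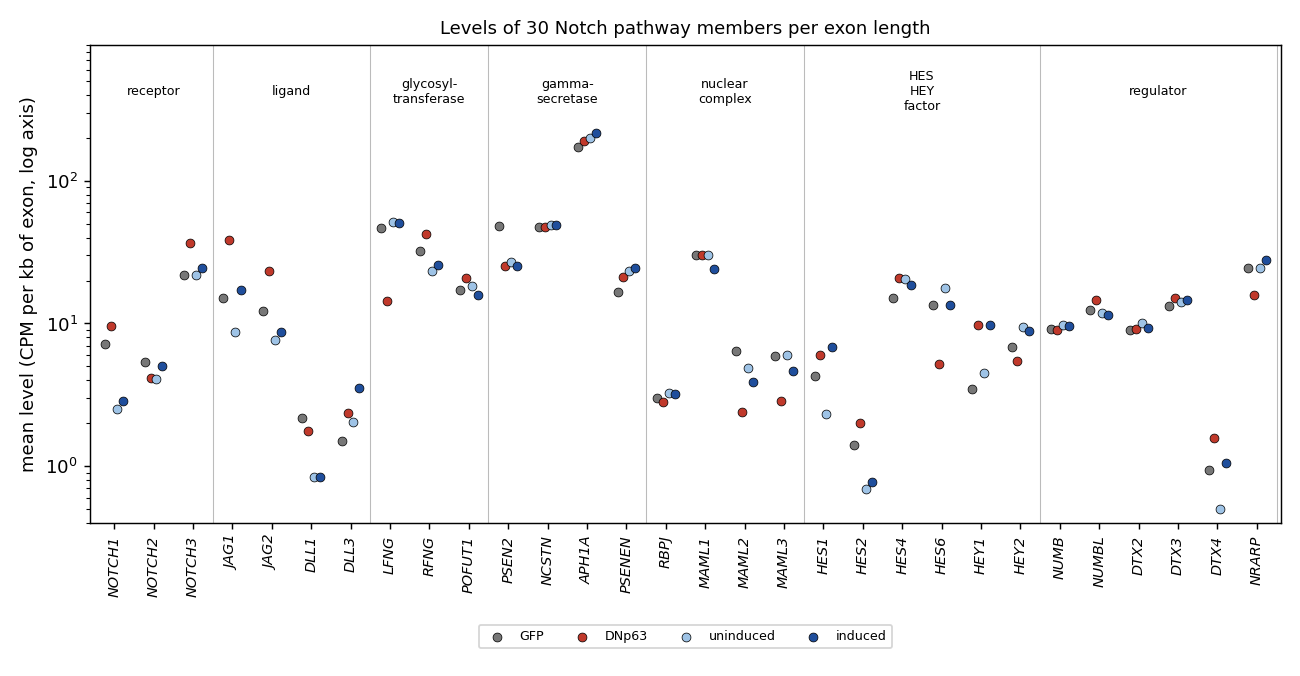
Mean level of the 30 tested members in each group (colours), in CPM per kb of exon on a log axis, ordered by role. NOTCH3 stood above the other receptors and JAG1 and JAG2 above the Delta ligands in all 4 groups; LFNG led its class except with constitutive DNp63, where it was at 14.5 against 42.6 for RFNG.

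The fringe enzymes add N-acetylglucosamine to fucose on the receptor, and in this class LFNG, encoding Lunatic fringe, gave the largest constitutive effect of all 30 members. LFNG was at 159 and 143 CPM in GFP cells and 53.7 and 39.0 CPM under constitutive DNp63. It was at 173 and 157 CPM uninduced and at 168 and 157 CPM induced. The 2 constitutive DNp63 libraries were far below the other 6, and the inducible groups overlapped. LFNG fell by 1.70 on the log2 scale under constitutive DNp63, with an SE of 0.21 and an edgeR adjusted p of 0.000871, and this call held in all 14 alternatives, from −1.95 to −1.48. Under induced DNp63 its value was −0.02 ± 0.20 (adjusted p = 0.998). The difference between the systems was itself called, at 1.68 ± 0.29 (induced minus constitutive; adjusted p = 0.0343), for 1 of 30 members, against 0.545% of all genes. Omitting GFP replicate 2 ended that call (adjusted p = 0.0571), as did omitting uninduced replicates 1 (0.229) or 2 (0.287) or induced replicates 1 (0.272) or 2 (0.176), with values of 1.61 to 1.77. The averaged value of −0.86 ± 0.14 (adjusted p = 0.00558) therefore joins a constitutive fall with a value near 0, and was not called without induced replicates 1 (0.0531) or 2 (0.0563).

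RefSeq lists 2 starts for LFNG, and the 250 bases before each are shown because this is the member with the firmest call. The first lies at chr7:2512279-2512528 and the second at chr7:2517613-2517862, both on the plus strand of GRCh38.p14; capitals mark TGGGAA.
LFNG, first start: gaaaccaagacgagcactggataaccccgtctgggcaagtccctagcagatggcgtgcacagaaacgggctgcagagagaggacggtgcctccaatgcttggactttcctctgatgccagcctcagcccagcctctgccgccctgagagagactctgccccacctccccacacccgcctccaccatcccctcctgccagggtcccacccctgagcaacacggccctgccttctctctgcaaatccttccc
LFNG, second start: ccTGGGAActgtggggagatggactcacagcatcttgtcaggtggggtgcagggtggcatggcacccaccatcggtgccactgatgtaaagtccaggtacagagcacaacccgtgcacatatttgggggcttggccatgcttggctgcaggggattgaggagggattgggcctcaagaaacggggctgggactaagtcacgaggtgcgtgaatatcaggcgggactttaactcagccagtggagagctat
TGGGAA occurs once before the second start, 248 to 243 bases upstream, and 20.8% of all promoter windows hold it on either strand. Each window has 1 match to CNNGNNNNNNCNNG. The counts are per gene, so the starts used in these cells are not known from them.

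RFNG, Radical fringe, ranged from 37.9 to 110.0 CPM and differed over 2-fold between the replicates of both constitutive groups, and its averaged value was 0.28 ± 0.27. POFUT1, which attaches the fucose that the fringes extend, ranged from 95.01 to 137 CPM with an averaged value of 0.03 ± 0.13. MFNG, Manic fringe, had 0 counts in all 8 libraries, which allows up to 1.11 CPM in the shallowest and 0.292 CPM in the deepest.

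**Figure D3:**
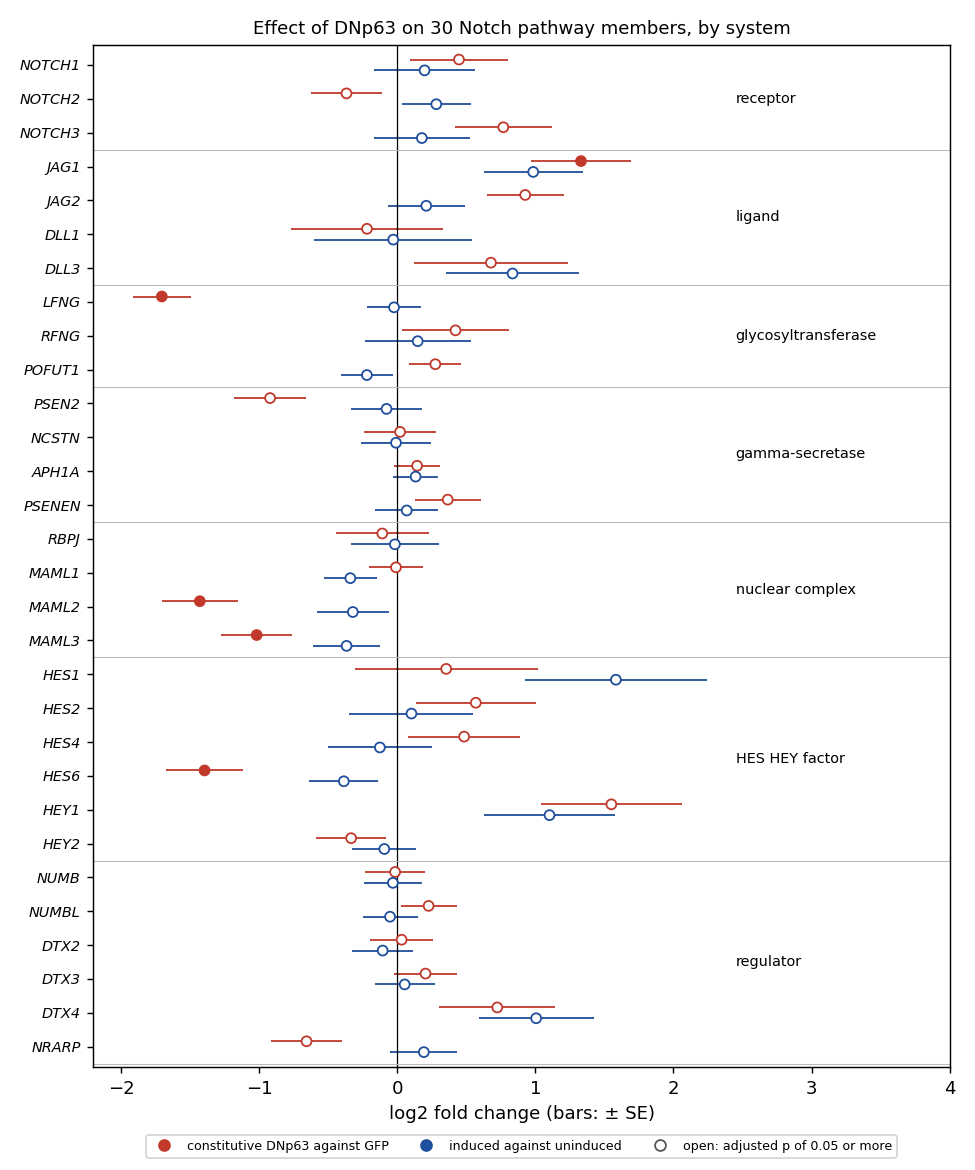
Log2 fold change with its SE (bars) for the 30 tested members, ordered by role, under constitutive DNp63 against GFP (red) and induced against uninduced (blue); filled symbols have an adjusted p below 0.05. The 5 filled symbols are red: JAG1 at 1.33, and LFNG, MAML2, HES6 and MAML3 between −1.70 and −1.02.

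In the nuclear complex, MAML2 and MAML3 fell and RBPJ and MAML1 did not pass. Mastermind proteins bridge the cut receptor and RBPJ to the transcription machinery. MAML2 was at 34.4 and 57.4 CPM in GFP cells, 16.001 and 18.2 CPM under constitutive DNp63, 32.6 and 36.4 CPM uninduced and 27.5 and 27.7 CPM induced. MAML3 was at 40.6 and 41.7 CPM in GFP cells, 15.4 and 24.8 CPM under constitutive DNp63, 41.5 and 43.2 CPM uninduced and 32.2 and 33.4 CPM induced. Both genes were lower in every library with DNp63 than in both libraries of its control group, in both systems. MAML2 fell by 1.43 on the log2 scale under constitutive DNp63 (SE 0.28; edgeR adjusted p = 0.0106) and MAML3 by 1.02 (SE 0.25; adjusted p = 0.0358). Under induced DNp63 the values were −0.32 ± 0.26 and −0.37 ± 0.24, neither called, and the differences between the systems did not pass (1.11 ± 0.38 and 0.65 ± 0.35; adjusted p = 0.272 and 0.501). Averaged, MAML2 had −0.88 ± 0.19 (adjusted p = 0.023) and MAML3 −0.69 ± 0.18 (adjusted p = 0.0452). The MAML2 averaged call was lost without GFP replicate 2 (0.0691) or any inducible library (0.0847 to 0.133), and its constitutive call without GFP replicate 2 (0.076). MAML3 lost its averaged call without either GFP library (0.0544 and 0.105) or any inducible library (0.15 to 0.202), and its constitutive call in 7 of 8 leave-outs (0.0579 to 0.125), all but that of DNp63 replicate 2.

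MAML1 was the most abundant Mastermind gene per exon length, at 28.7 CPM per kb against 4.87 for MAML3 and 4.40 for MAML2. It was at 174 and 173 CPM in GFP cells, 198 and 147 CPM under DNp63, 176 and 173 CPM uninduced and 130 and 145 CPM induced, with an averaged value of −0.17 ± 0.14. RBPJ, the DNA-binding partner of the cut receptor, ranged from 12.9 to 26.0 CPM, both with GFP, and its averaged value was −0.06 ± 0.23.

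The γ-secretase subunits had no called member. PSEN2, a presenilin that forms the catalytic centre, was at 163 and 90.8 CPM in GFP cells, 60.6 and 72.7 CPM under constitutive DNp63, 72.5 and 68.3 CPM uninduced and 64.3 and 69.0 CPM induced. The constitutive groups did not overlap, GFP replicate 1 stood highest, and the value of −0.92 ± 0.26 did not pass in edgeR (adjusted p = 0.0573), while DESeq2 called it (0.0217). It was −0.45 without GFP replicate 1 (0.231) and −1.30 without GFP replicate 2 (0.0119). NCSTN, the nicastrin subunit that receives the substrate, ranged from 107 to 172 CPM (averaged 0.01 ± 0.18), APH1A, a scaffold subunit, from 393 to 514 CPM (0.14 ± 0.12), and PSENEN, which activates presenilin, from 29.01 to 51.7 CPM (0.22 ± 0.16). None of these 3 genes passed the averaged test.

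Some HES and HEY genes are known to be induced by Notch signalling. In this class HES6 fell, and HES1 and HEY1 had higher values after induction. HES6 differs from its relatives in that it counteracts HES1 and promotes neuronal differentiation. HES6 was at 22.2 and 25.4 CPM in GFP cells, 10.6 and 7.76 CPM under constitutive DNp63, 35.4 and 27.3 CPM uninduced and 24.3 and 23.4 CPM induced. The groups of each system did not overlap. HES6 fell by 1.40 on the log2 scale under constitutive DNp63 (SE 0.28; edgeR adjusted p = 0.0128) and had −0.39 ± 0.25 under induced DNp63 (adjusted p = 0.957), without a called difference between the systems (1.01 ± 0.37; adjusted p = 0.308). Averaged it had −0.89 ± 0.19 (adjusted p = 0.0201), a call lost without GFP replicate 2 (0.0625) or any inducible library (0.0601 to 0.13), and the constitutive call was lost without GFP replicate 2 (0.0713).

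HEY1, a repressor induced by Notch in many tissues, was at 9.98 and 7.84 CPM in GFP cells and 10.3 and 40.3 CPM under constitutive DNp63. It was at 10.9 and 12.3 CPM uninduced and 24.2 and 26.0 CPM induced. Both inducible groups were tight and apart, whereas DNp63 replicate 1 was barely above GFP replicate 1. HEY1 had the largest averaged value of the 30 members, 1.33 ± 0.35 on the log2 scale, which did not pass in edgeR (adjusted p = 0.0517) and passed under DESeq2 (0.00409) and without DNp63 replicate 1 (1.65; 0.000348). Without DNp63 replicate 2 the averaged value was 0.67 (adjusted p = 0.0839), and the constitutive value went from 1.55 to 0.23 (adjusted p = 0.718). HES1, the best-known Notch target, was at 1.11 and 12.5 CPM in GFP cells, from 3 and 59 counts, and at 11.4 and 7.56 CPM under constitutive DNp63. It was at 4.03 and 3.31 CPM uninduced and 12.2 and 9.44 CPM induced. The GFP libraries spanned the whole range of HES1, so the constitutive comparison of 0.35 ± 0.66 did not pass (edgeR adjusted p = 0.813), while induced and uninduced libraries did not overlap. That constitutive value was 3.04 without GFP replicate 2 (called, adjusted p = 0.0471), −0.42 without GFP replicate 1 (0.579) and 0.015 without DNp63 replicate 1 (0.995). The averaged HES1 value of 0.97 ± 0.47 (adjusted p = 0.296) was 2.31 without GFP replicate 2 (0.012) and 0.58 without GFP replicate 1 (0.244). The induced values were 1.58 ± 0.66 for HES1 and 1.10 ± 0.47 for HEY1 and did not pass with the spread shared by all 8 libraries (adjusted p = 0.727 and 0.755). In the fit to the 4 inducible libraries alone both were called (1.60, edgeR adjusted p = 0.00221, and 1.10, adjusted p = 0.00104). With JAG1 they were the 3 of 30 members called there, against 6.43% of 11991 genes (3.63% higher and 2.8% lower).

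The upstream bases of HES1 are shown because it is the best-known Notch target. They lie at chr3:194135898-194136147 on the plus strand of GRCh38.p14, and capitals mark TGGGAA. The same window of HES6, at chr2:238240039-238240288 on the minus strand, is set beside it as the family member that fell.
HES1: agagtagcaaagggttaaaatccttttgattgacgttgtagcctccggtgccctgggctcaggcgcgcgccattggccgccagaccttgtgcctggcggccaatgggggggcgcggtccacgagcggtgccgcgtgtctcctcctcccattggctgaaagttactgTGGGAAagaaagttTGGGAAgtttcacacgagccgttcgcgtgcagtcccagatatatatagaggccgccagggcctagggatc
HES6: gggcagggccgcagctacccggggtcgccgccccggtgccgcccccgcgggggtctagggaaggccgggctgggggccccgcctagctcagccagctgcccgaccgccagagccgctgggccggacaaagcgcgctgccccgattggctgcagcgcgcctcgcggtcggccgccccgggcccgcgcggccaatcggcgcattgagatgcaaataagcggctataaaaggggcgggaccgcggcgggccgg
HES1 holds TGGGAA at 84 to 79 and at 70 to 65 bases before its start, both on the plus strand, and HES6 holds none. It also holds 4 matches to CACGNG, a box bound by HES and HEY proteins, and 3 to CACNAG, the N box, of which 2 are the same bases as CACGNG matches; HES6 has 0 of each. Over all promoter windows, 26.7% hold CACGNG and 32% hold CACNAG. Of the 36 members 30 have an entry in the promoter table, with 37 starts in all, and 9 of these starts (24.3%) hold TGGGAA. A match describes letters and does not show that a factor binds.

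HES4, a HES gene without a mouse counterpart, ranged from 10.38 to 29.4 CPM (averaged 0.18 ± 0.28). HES2 ranged from 3.21 to 13.6 CPM (0.34 ± 0.31), and HEY2, a HEY repressor known from heart and vessels, from 14.9 to 28.8 CPM (−0.21 ± 0.17). HEYL had 0 to 4 counts and HES5 0 to 2 counts in any library.

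**Figure D4:**
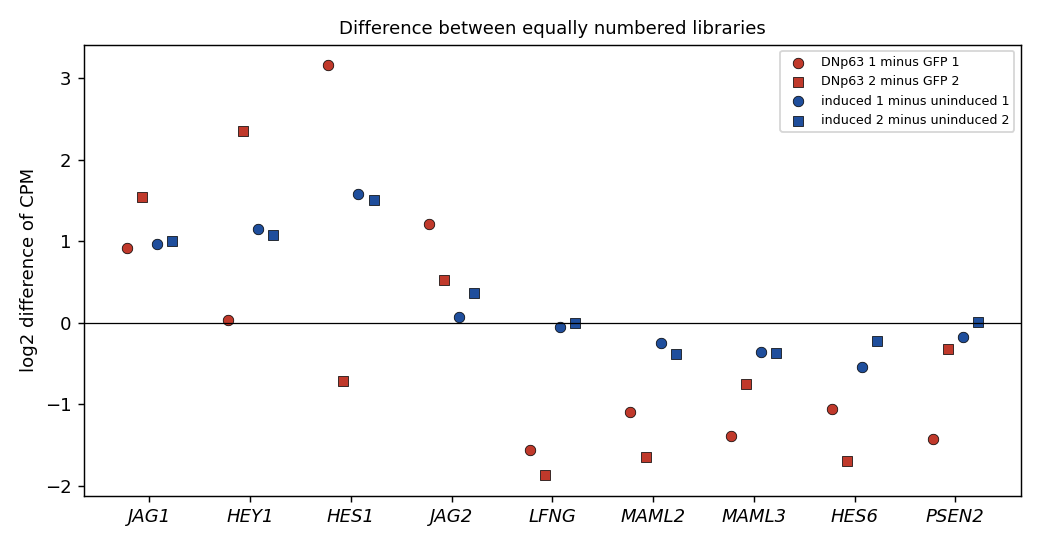
Log2 difference of CPM (0.5 counts added) between equally numbered libraries for 9 members, constitutive pairs in red, inducible pairs in blue, circles for number 1 and squares for number 2. All 4 points of JAG1 lie above 0 and all 4 of MAML2, MAML3 and HES6 below it, while HES1 and HEY1 scatter widely between the red points.

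The numbered pairs of the constitutive system share a vector number, so they give values within a vector. JAG1 differed by 0.91 with pLEX_306 and 1.55 with pLEX_307 on the log2 scale, LFNG by −1.56 and −1.87, MAML2 by −1.10 and −1.65, MAML3 by −1.39 and −0.75 and HES6 by −1.06 and −1.70. The sign within each vector follows from the groups not overlapping in these 5 genes, so only the sizes add to the comparison above. HEY1 differed by 0.04 and 2.35 and HES1 by 3.16 and −0.72. Of the 30 members 6 were positive in all 4 pairs, namely JAG1, JAG2, DLL3, APH1A, HEY1 and DTX4 (20%, against 12.3% of all tested genes), and 3 were negative in all 4, MAML2, MAML3 and HES6 (10%, against 11.7%). Without overlap of the 2 groups, 9 of 30 members lay above GFP under constitutive DNp63 (22.4% of all genes) and 7 below it (22%). After induction 8 lay above the uninduced group (22.9%) and 6 below it (24%), so these shares were near those of all genes. In both systems at once 4 of 30 members lay above the control group, against 7.84% of all genes, and 3 lay below, against 7.15%.

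The regulators had no called member. NRARP, a feedback inhibitor that is itself induced by Notch, was at 41.8 and 45.3 CPM in GFP cells, 34.9 and 20.9 CPM under DNp63, 42.7 and 44.2 CPM uninduced and 51.9 and 47.4 CPM induced. It thus lay below its control in the constitutive system (−0.66 ± 0.26; edgeR adjusted p = 0.153) and above it in the inducible system (0.19 ± 0.24), neither called, and the difference between the systems did not pass (0.85 ± 0.35; adjusted p = 0.366). DTX4, a Deltex ubiquitin ligase, was at 5.17 and 5.51 CPM in GFP cells, 10.3 and 7.56 CPM under DNp63, 2.21 and 3.5 CPM uninduced and 5.06 and 6.88 CPM induced. Its groups did not overlap in either system, and its averaged value of 0.86 ± 0.30 did not pass (edgeR adjusted p = 0.131). NUMB, an inhibitor that is shared unequally between daughter cells, ranged from 45.7 to 62.8 CPM (averaged −0.02 ± 0.15), and its relative NUMBL from 38.6 to 53.7 CPM (0.09 ± 0.14). DTX2 ranged from 24.02 to 30.4 CPM (−0.04 ± 0.16) and DTX3 from 37.9 to 54.1 CPM (0.13 ± 0.16). DTX1 had 0 to 4 counts in any library.

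A further 72 genes of the pathway or near it, other than the members, were present in the table and 64 were tested. In the averaged comparison 3 rose and 3 fell (9.38%, against 5.67% of all genes), with a median of −0.06. ID2, an inhibitor of helix-loop-helix factors, rose by 1.03 ± 0.15 on the log2 scale (edgeR adjusted p = 0.00321). It was at 78.0 and 111 CPM in GFP cells, 178 and 234 CPM under DNp63, 118 and 118 CPM uninduced and 229 and 222 CPM induced, without overlap in either system. TLE2, a Groucho corepressor that HES proteins recruit, rose by 1.37 ± 0.32 (adjusted p = 0.032), and CNTN1, a contactin reported as a Notch ligand in glia, by 0.70 ± 0.18 (adjusted p = 0.0466).

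ID3, a relative of ID2, was at 554 and 683 CPM in GFP cells, 121 and 168 CPM under DNp63, 489 and 437 CPM uninduced and 331 and 374 CPM induced. Averaged over the systems ID3 fell by 1.25 on the log2 scale (SE 0.15; edgeR adjusted p = 0.000798). It fell by 2.098 under constitutive DNp63 (SE 0.22; adjusted p = 0.000345) and had −0.39 ± 0.21 after induction, which was not called (adjusted p = 0.922). Like LFNG, ID3 had a called difference between the systems (1.71 ± 0.30; adjusted p = 0.0374). NEURL1, a ubiquitin ligase that acts on Notch ligands, had −2.37 ± 0.39 (adjusted p = 0.0051). NEURL1 was at 14.4 and 14.8 CPM in GFP cells, 0.857 and 2.52 CPM under DNp63, 8.05 and 6.51 CPM uninduced and 1.24 and 3.34 CPM induced. LNX1, a ligase that targets NUMB, had −1.16 ± 0.25 (adjusted p = 0.0242). The ID2, ID3 and NEURL1 averaged calls held with each library left out; those of LNX1, TLE2 and CNTN1 were lost without any 1 inducible library (adjusted p of 0.0896 to 0.228), LNX1 also without GFP replicate 2 (0.0936), and CNTN1 also without GFP replicate 1 (0.0789) or DNp63 replicate 2 (0.0607). Within the constitutive system 10 of the 64 were called, 5 in each direction (15.6%, against 8.16% of all genes, 4.17% higher and 3.99% lower). Within the inducible system none was called, against 0.284% of all genes, where 4 had an unadjusted p below 0.05.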

How the data were processed

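RNA of 8 LK2 libraries was sequenced after polyA selection as directional, paired 38-base reads, per the labels' protocols. The authors deposited 1 table of raw counts by gene symbol. Per the submitters' processing notes, TopHat2 2.1, HTSeq, SAMtools and DESeq2 were used with the hg19 genome; the annotation and strand setting of the counting were not given in the sources used here, so reads of overlapping antisense genes cannot be told apart. All columns of the table were used.

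The Notch members, the other gene lists and the tests were chosen with earlier results of these data known. All 36 members are named, called ones with SE and adjusted p and the others with values; adjusted p of uncalled members were added after their values were seen. Other pathway genes are named where called in the averaged comparison. Genes were filtered with filterByExpr (minimum count 10, 12303 genes kept), scaled by TMM factors and fitted in R 4.3.3 with the quasi-likelihood functions of edgeR 4.0.16, legacy form, with 1 mean per group over all 8 libraries. CPM use the scaled totals of the kept genes. The SE was derived from the fold change and its F statistic. The averaged comparison is the mean of both systems' effects. The fit was tested on simulated data. Alternatives were DESeq2 1.42.0, its size factors, no filter, newer edgeR estimates, a replicate block, each system alone and each library left out. Exon lengths are unions over GENCODE release 29 (GRCh38), not the annotation of the counts. Promoter letters are from RefSeq.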

Additional observations from a re-analysis of the deposited data

Results flagged for a closer look

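LFNG was singled out because its response differed between the systems by a test of the difference itself. Its log2 effect was 1.68 higher with induced than with constitutive DNp63 (SE 0.29; edgeR adjusted p = 0.0343), being −1.70 ± 0.21 in the constitutive and −0.02 ± 0.20 in the inducible system (n = 2 per group). The systems also differ in TP63 level, vector and control cells, whose parts cannot be told apart here.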

How the results depend on the processing

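For 42 single-gene results (constitutive and averaged HES1, INSM1, UCHL1 and the other pathway genes were added after seeing the data), 455 of 562 alternative values kept their side of the threshold, 72 lost a call and 34 gained one. The constitutive HES1 value alone changed sign, to −0.42 without GFP replicate 1, and was 3.04 without GFP replicate 2. The 5 averaged calls among the members became 9 without the filter and 0 to 7 with 1 library left out; DESeq2 size factors left the same 5. The 5 constitutive calls became 9 without the filter, 8 with DESeq2, 1 (LFNG) with the constitutive libraries alone and 3 to 8 with 1 library left out. The 0 induced calls became 3 without the filter and 3 with the inducible libraries alone (JAG1, HES1 and HEY1 in both), and stayed 0 with 1 library left out. The 1 called difference between the systems ranged from 0 to 1 with 1 library left out. Between the control groups, 0 calls became 1 (NOTCH1) without the filter, 1 with DESeq2 and 0 to 1 with 1 library left out. For the other pathway genes, for which alternatives were added after seeing the data, 6 averaged calls became 12 without the filter, 10 with the replicate block and 3 to 10 with 1 library left out, and 10 constitutive calls became 2 with that system alone and 4 to 11 with 1 library left out. The cause was not tested.

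A replicate block within each system gave 6 averaged and 7 constitutive calls among the members, all 5 main calls included in each. Equally numbered libraries share a number, and in the constitutive system a vector number, but no stated culture or day; their deviations correlated at 0.22 in the constitutive and −0.03 in the inducible system over 12303 genes.

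Over all genes, 697 averaged calls became 1372 without the filter and 225 to 1113 with 1 library left out, and 1004 constitutive calls became 1791, 275 with that system alone and 452 to 1438. The 35 induced calls became 242 without the filter, 110 with DESeq2, 87 with the block, 771 with that system alone and 2 to 104 with 1 library left out. The 67 differences became 558, 259 with DESeq2, 270 with the block and 0 to 446, and the 1 call between controls became 245, 57, 65 and 0 to 43. Leaving out a library leaves a group with 1 sample, assumed to vary like the rest. Depth limits DLL1, DLL3, HES1, HES2 and DTX4 and leaves 6 members untested.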

Other observations

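Genes that HES proteins are known to repress were also read. Of 8 proneural factors only INSM1, a zinc finger gene of neuroendocrine and neuronal precursors, had enough counts to be tested. INSM1 was at 47.7 and 29.01 CPM in GFP cells, 20.0 and 10.3 CPM under constitutive DNp63, 24.4 and 25.4 CPM uninduced and 23.2 and 15.5 CPM induced. Its constitutive value was −1.35 ± 0.37 on the log2 scale (SE, n = 2 per group; edgeR adjusted p = 0.0486), and its averaged value of −0.85 ± 0.25 did not pass (adjusted p = 0.0845). The constitutive call was lost in 7 of 8 leave-outs, all but that of DNp63 replicate 1 (adjusted p of 0.0509 to 0.172), with −0.97 without GFP replicate 1 and −0.91 without DNp63 replicate 2. NEUROG2, a neurogenic factor, had 3 and 2 counts in the GFP libraries and 1 and 2 under constitutive DNp63. It had 2 and 9 counts uninduced and 27 and 4 induced, so the induced counts came mostly from replicate 1. NEUROG3 and NEUROD4 had no counts in any library. UCHL1, a neuroendocrine marker in the lung, was at 505 and 569 CPM in GFP cells and at 1372 and 897 CPM under constitutive DNp63. Its constitutive value was 1.08 ± 0.22 on the log2 scale (edgeR adjusted p = 0.0128), and 0.73 without DNp63 replicate 1. The constitutive UCHL1 call was lost in 1 of 14 alternatives. UCHL1 was at 671 and 649 CPM uninduced and 599 and 672 CPM induced (−0.06 ± 0.21; edgeR adjusted p = 0.995), and its averaged value of 0.51 ± 0.15 did not pass (adjusted p = 0.083). NCAM1, an adhesion molecule of neural and neuroendocrine cells, had 0.65 ± 0.86 in the constitutive and −1.31 ± 0.84 in the inducible system, neither called, and SYP and CHGA had 0 to 5 counts in any library.

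The 2 constitutive DNp63 libraries differed from each other more than other replicate pairs did, in the members and over all tested genes. Of 30 members 7 differed over 2-fold (23.3%, beside 14.2% of all tested genes). Between the GFP libraries 2 did (6.67%, beside 12.8%), uninduced 0 (beside 2.24%) and induced 1 (3.33%, beside 5.97%). NOTCH1, NOTCH3, JAG1, DLL1 and HEY1 were higher in replicate 2, by 1.04 to 1.93 on the log2 scale, and HES4 and RFNG were lower. The library of replicate 2 also held more TP63 (3816 against 1850.1 CPM) and carried the other vector number. Of all 8 libraries, 7 of 30 members were highest there (23.3%, against 16.4% of all tested genes), among them NOTCH1, NOTCH3, JAG1 and HEY1. Their relation to the TP63 level was not tested, since 2 libraries give no replicate of either level.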
